A study of Danio rerio with 10 samples.

Results

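Translation initiation factors (eIF) and elongation factors (eEF) are the proteins that start and drive protein synthesis on the cytosolic ribosome, and their transcripts were examined in the skeletal muscle of adult AB zebrafish. Genes were chosen by name alone, as those whose zebrafish symbol begins with eif1 to eif6, eef1 or eef2, which includes the helicase gene eif4a2 and the inhibitor genes of the eif4ebp family. The eIF2 kinase genes (eif2ak) and eef1e1 were not taken as members. This gave 66 of the 17373 genes listed for induced torpor against control. Of these, 36 had a one-to-one human orthologue and could be read in all 3 comparisons with the control, out of 9411 such genes, and 30 were other copies, which were read for induced torpor only.

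RNA was sequenced from 10 fish. The control group (2 fish) was kept at 28.5 °C without melatonin or radiation, and the radiation group (3 fish) was kept at 28.5 °C without melatonin and received 32.64 cGy from a caesium source. The induced torpor group (2 fish) was brought slowly to 18.5 °C and held in 24 µM melatonin without radiation, and the induced torpor+radiation group (3 fish) received the same cold and melatonin together with 32.64 cGy. Cold and melatonin were always given together in these fish, so that their effects cannot be told apart. The fish codes in the labels begin with F for all control and radiation fish, with M for both torpor fish and with 2 M and 1 F for induced torpor+radiation; the letters are not explained, and whatever they stand for cannot be told apart from torpor in the comparison with the control and was also unequal between induced torpor+radiation and radiation.

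Initiation begins at the 5′ cap of the mRNA, where eIF4E binds the cap, eIF4G acts as a scaffold and the RNA helicase eIF4A unwinds the leader. The 4E-BP proteins compete with eIF4G for eIF4E and block this step until mTOR phosphorylates them. The small ribosomal subunit, carrying eIF3, eIF1, eIF1A and the initiator tRNA brought by GTP-bound eIF2, then scans for the start codon. After start codon recognition eIF2 is left with GDP, and eIF2B, an exchange factor, reloads it with GTP, a step that is inhibited when stress kinases phosphorylate eIF2. During elongation eEF1A delivers each aminoacyl-tRNA, the eEF1B complex recharges eEF1A with GTP, and eEF2 moves the ribosome along the mRNA. Muscle adjusts protein synthesis to use, feeding and temperature partly through these factors, and protein synthesis falls deeply in mammalian torpor. RNA sequencing measures transcript levels and not the phosphorylation of these proteins or the rate of protein synthesis.

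The deposited data hold no value per fish. They give for each gene the baseMean, an average over the 10 fish of counts scaled for library size, and the log2 fold change of each treated group over the control with its standard error (SE). Means per group were recovered from these, so that every level below is a mean normalized count of a group and has an SE on the log2 scale but no SD. Levels were compared between groups and not between genes, since transcript lengths were not used. A gene is said to have risen or fallen only where its adjusted p was 0.1 or less, or 0.4 or less for radiation against control. The tissue was checked because the extraction text of the labels names liver while the other labels name muscle: of 24 zebrafish genes on the fast muscle list, 15 had a baseMean of at least 1000 and the highest reached 419048, whereas 9 of 10 liver genes lay under 10. Cell type markers also moved. In induced torpor 2 of 20 fast muscle genes tested rose and 6 fell, beside 6.14% and 4.82% of all genes. Of 14 oocyte genes, 10 had a baseMean under 10, and the 5 tested in induced torpor all fell. Among these, h1m, zar1, kpna7 and btg4 reached testable counts largely through the control, where they were high. A fall was therefore favoured by the filter, so that the count of 5 is a description only. Summed means of 9 oocyte genes were 501 in control and 17.1 in induced torpor. The summed means of 4 leukocyte genes were 232 in control, 403 in radiation, 177 in induced torpor and 269 in induced torpor+radiation. Of these 4 only lcp1 passed, lower in induced torpor+radiation than in radiation (log2 -1.01, SE 0.32, adjusted p = 0.020, Wald test from recovered means). There and in induced torpor against control, spi1b and coro1a also lay below 0, whereas rac2 lay above 0 (0.21, SE 0.51, and 0.61, SE 0.64). The part of these cell types in the changes of the members was not tested. In bulk tissue, fewer cells of a type and less RNA per cell cannot be told apart. Of the 66 members, 59 had a baseMean of at least 10, and the other 7, eef1a1l2, eef1a2, eef1akmt1, eef2a.1, eef2a.2, eif3bb and eif4e1b, had very low counts.

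Induced torpor against control asked how cold with melatonin changed these transcripts. Of 60 members tested, 7 rose and 3 fell (11.7% and 5.0%), against 6.14% of all 11529 genes tested that rose and 4.82% that fell, so that the share that fell was near the background and the share that rose was above it. The 7 that rose were eif4ebp3, eif4eb, eif3jb, eif3hb, eif2b1, eif2s2 and eif4e3, and the 3 that fell were eif4a2, eif2b2 and eif3ba. The median log2 fold change of the 59 members with a baseMean of at least 10 was -0.01, beside 0.00 over 10455 genes. Among genes that passed, those of eIF3, of eIF2B and of the cap-binding complex went in both directions. When all fold changes were centred on the median gene, which subtracted 0.10, the split of 7 higher and 3 lower became 5 and 5. The genes eif4e3 (adjusted p = 0.107) and eif2b1 (0.113) dropped out, and eef2k (0.099) and eif3f (0.076) came in as lower. The shares of all genes called after centring were not calculated, so that the 5 and 5 have no background. The share that rose was thus above the background without centring, and was not compared with it after centring. At an unadjusted p under 0.05 by the DESeq2 Wald test, 9 of the 60 were higher and 8 lower, beside 10.9% and 9.63% of all genes. Of 34 one-to-one members tested, 3 rose and 2 fell. The members also had smaller SEs, with a median of 0.35 beside 0.48 over all genes. What this did to the shares that passed was not tested.

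**Figure D1:**
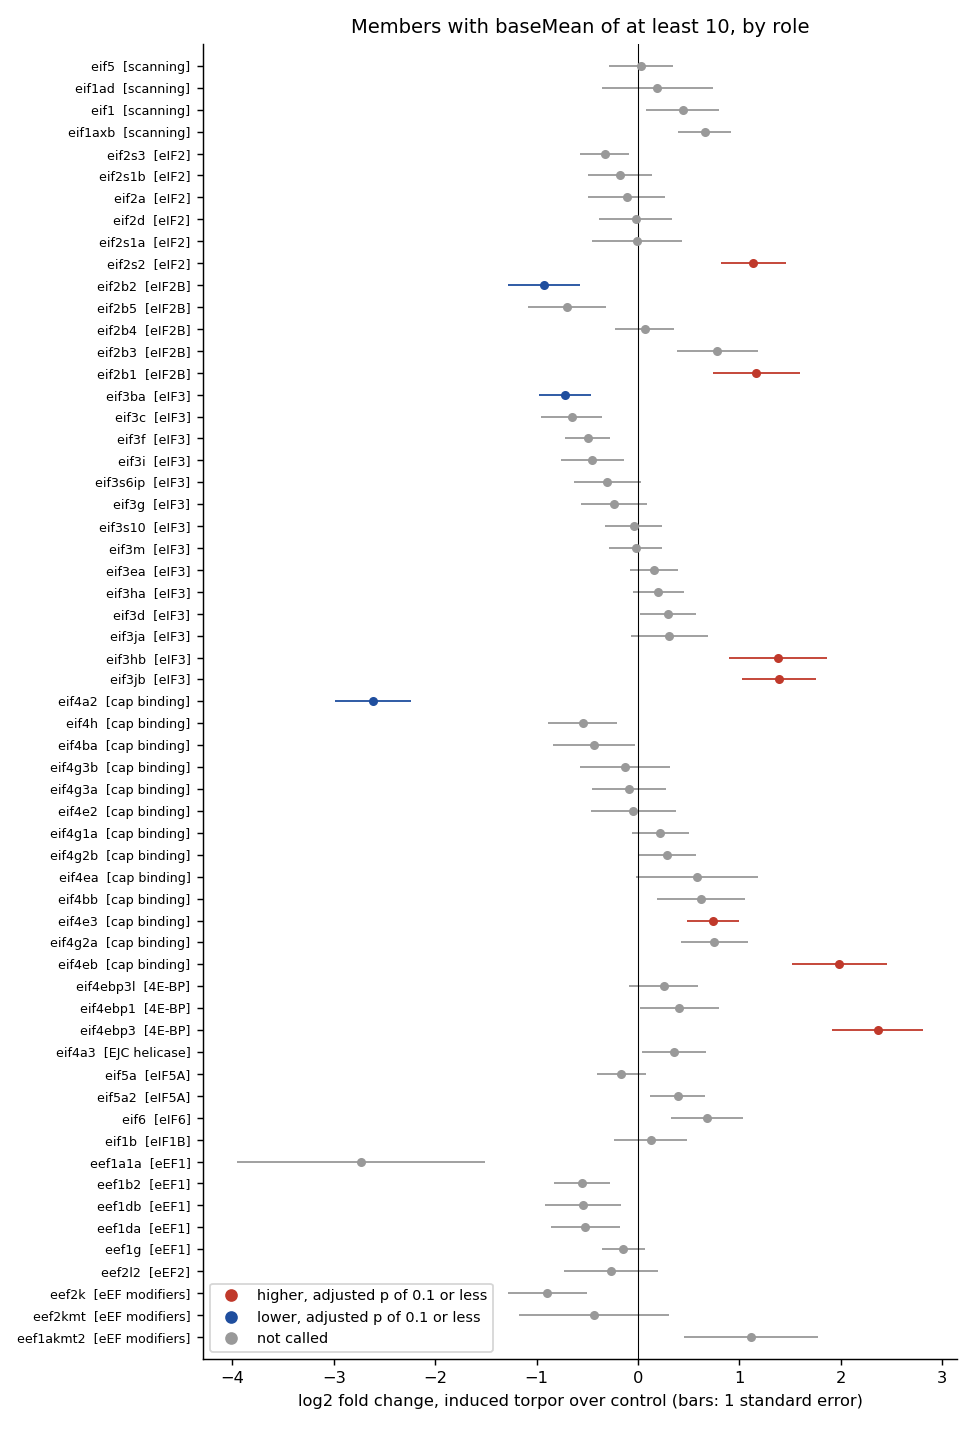
Log2 fold change of induced torpor over control (horizontal axis) for the 59 members with a baseMean of at least 10, grouped by role along the vertical axis; points are the deposited fold changes and bars 1 SE, red for genes that rose, blue for genes that fell and grey for genes that did not pass. Most genes lie within 1 log2 unit of 0. Far to the left lie eef1a1a at -2.73 (SE 1.22, not passing) and eif4a2 at -2.62, and every role with several coloured points holds both colours.

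The cap-binding machinery held the change with the smallest p of all members. eif4a2 (ENSDARG00000016477) encodes eIF4A2, a paralogue of the main eIF4A helicase. No eif4a1 gene was among the members, so that the transcript of that main helicase was not read. Its mean normalized count was 1466 in control (log2 SE 0.26), 1520 in radiation (0.21), 239 in induced torpor (0.27) and 297 in induced torpor+radiation (0.22). Both groups at 18.5 °C were thus far below both groups at 28.5 °C, and the means within each temperature were close. The transcript fell 6.14-fold in induced torpor against control (log2 fold change -2.62, SE 0.37, 95% interval -3.35 to -1.88, adjusted p = 1.67e-09, DESeq2 Wald test). It fell 4.94-fold in induced torpor+radiation against control (log2 fold change -2.31, SE 0.34, adjusted p = 5.87e-09) and 5.13-fold in induced torpor+radiation against radiation (-2.36, SE 0.31, adjusted p = 5.41e-12). Radiation gave a log2 fold change of 0.05 (SE 0.34) at 28.5 °C and of 0.31 (95% interval -0.37 to 0.99) under torpor. The eIF4A3 gene eif4a3, whose helicase works in the exon junction complex and not at the cap, had means of 446, 547, 572 and 559 in control, radiation, induced torpor and induced torpor+radiation and did not pass any test.

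Cap-binding protein genes moved the other way or did not pass. eif4eb (ENSDARG00000013274), a copy of the eIF4E gene, rose 3.96-fold in induced torpor (log2 fold change 1.99, SE 0.47, adjusted p = 0.0012), while its partner eif4ea had 0.58 (SE 0.61). eif4e3, which encodes a cap-binding relative of eIF4E, had means of 861 in control, 1101 in radiation, 1436 in induced torpor and 1129 in induced torpor+radiation. It rose 1.67-fold in induced torpor (log2 fold change 0.74, SE 0.26, adjusted p = 0.050), but the irradiated fish did not show this, with 0.04 (SE 0.21) for induced torpor+radiation against radiation. The difference between these responses, the radiation by torpor interaction, was -0.70 (SE 0.33, adjusted p = 0.91 by the recovered Wald test) and did not pass. Genes of the eIF4G family were placed in this group by name, whether or not their proteins bind eIF4E. Of these, eif4g2a had a log2 fold change of 0.75 (SE 0.33, adjusted p = 0.15), and eif4g1a, eif4g2b, eif4g3a and eif4g3b lay between -0.13 and 0.29. The helicase cofactor genes also did not pass, at -0.44 for eif4ba, 0.63 for eif4bb and -0.55 for eif4h. In all, 13 of 14 members of this group were tested, 2 rose and 1 fell, beside 6.14% and 4.82% of all genes.

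The 4E-BP inhibitors were represented by 3 genes, all with a fold change above 0 in induced torpor and 1 of them called. Over all genes 6.14% rose, and the share above 0 was not calculated. eif4ebp3 (ENSDARG00000054916) rose 5.14-fold (log2 fold change 2.36, SE 0.45, 95% interval 1.48 to 3.24, adjusted p = 2.14e-05), the largest rise among the members with a baseMean of at least 10. Its related copy eif4ebp3l had 0.25 (SE 0.34). eif4ebp1 could be followed in all groups and had means of 85.2 in control, 51.0 in radiation, 113 in induced torpor and 112 in induced torpor+radiation. The torpor means were alike and the radiation mean was the lowest. Against the control no group passed (log2 fold change -0.74, SE 0.37, unadjusted p = 0.047 and adjusted p = 0.77 for radiation; 0.41, SE 0.39, for induced torpor), but induced torpor+radiation was 2.20-fold higher than radiation (log2 1.14, SE 0.33, adjusted p = 0.0092).

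Of the one-to-one members, 4 passed in all 3 comparisons of a group in cold and melatonin with a group in neither. eIF2, the carrier of the initiator tRNA, and its exchange factor eIF2B held 3 of these 4. These were eif2s2, eif2b1 and eif2b2, the other being eif4a2. Copies without a one-to-one orthologue could not be read in all 3. The comparisons share fish, and the share of all one-to-one genes that passed in all 3 was not calculated. The count of 4 therefore has no background and is not taken as a repeat. eif2s2, for the beta subunit of eIF2, had means of 1435 in control, 2086 in radiation, 3155 in induced torpor and 3783 in induced torpor+radiation. Both torpor means were above both means at 28.5 °C. The transcript rose 2.20-fold in induced torpor (log2 fold change 1.14, SE 0.32, adjusted p = 0.010) and 2.64-fold in induced torpor+radiation (1.40, SE 0.29, adjusted p = 0.00012) against control, and 1.81-fold in induced torpor+radiation against radiation (0.86, SE 0.26, adjusted p = 0.014). The log2 fold change in radiation was 0.54 (SE 0.29, adjusted p = 0.85). Genes of the other eIF2 subunits stayed near 0 in induced torpor, at -0.01 (SE 0.44) for eif2s1a, -0.18 (SE 0.32) for eif2s1b and -0.33 (SE 0.24) for eif2s3, and none passed. eif2a and eif2d, for factors that can bring initiator tRNA without eIF2, had log2 fold changes between -0.12 and 0.10 in all comparisons with the control and in induced torpor+radiation against radiation, and none passed.

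All 5 subunits of eIF2B had one-to-one orthologues, and they split. eif2b1, for the alpha subunit, which takes part in sensing phosphorylated eIF2, had means of 41.7 in control, 43.9 in radiation, 93.8 in induced torpor and 89.9 in induced torpor+radiation. It rose 2.25-fold in induced torpor (log2 fold change 1.17, SE 0.43, adjusted p = 0.075) and 2.16-fold in induced torpor+radiation (1.11, SE 0.40, adjusted p = 0.052) against control, and 2.05-fold in induced torpor+radiation against radiation (1.03, SE 0.36, adjusted p = 0.035). Centring on the median gene took both comparisons with the control above the threshold, to adjusted p = 0.113 and 0.114. eif2b3, for the gamma subunit, had a like pattern, with means of 86.6, 74.2, 149 and 143 in control, radiation, induced torpor and induced torpor+radiation. It did not pass against control in induced torpor (0.78, SE 0.40, adjusted p = 0.25), and it was 1.92-fold higher in induced torpor+radiation than in radiation (0.94, SE 0.33, adjusted p = 0.040).

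The beta and epsilon subunits of eIF2B went down. eif2b2, for the beta subunit, had means of 115 in control, 140 in radiation, 60.3 in induced torpor and 59.9 in induced torpor+radiation. It fell 1.90-fold in induced torpor (log2 fold change -0.93, SE 0.36, adjusted p = 0.090), 1.91-fold in induced torpor+radiation against control (-0.94, SE 0.33, adjusted p = 0.042) and 2.34-fold against radiation (-1.23, SE 0.29, adjusted p = 0.00080). eif2b5, for the catalytic epsilon subunit, had means of 270 in control, 307 in radiation, 166 in induced torpor and 110 in induced torpor+radiation. It fell 2.45-fold in induced torpor+radiation against control (-1.30, SE 0.35, adjusted p = 0.0061) and 2.79-fold against radiation (-1.48, SE 0.32, adjusted p = 0.00015). In induced torpor it had -0.70 (SE 0.38, adjusted p = 0.29), and induced torpor+radiation differed from induced torpor by -0.59 (95% interval -1.29 to 0.11), so that an added effect of radiation was not resolved. eif2b4, for the delta subunit, had means of 318, 391, 333 and 318 in control, radiation, induced torpor and induced torpor+radiation and did not pass in any comparison. In induced torpor+radiation against radiation the transcripts of this complex thus differed in direction, with alpha and gamma higher, beta and epsilon lower, and delta not passing (-0.30, SE 0.24).

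**Figure D2:**
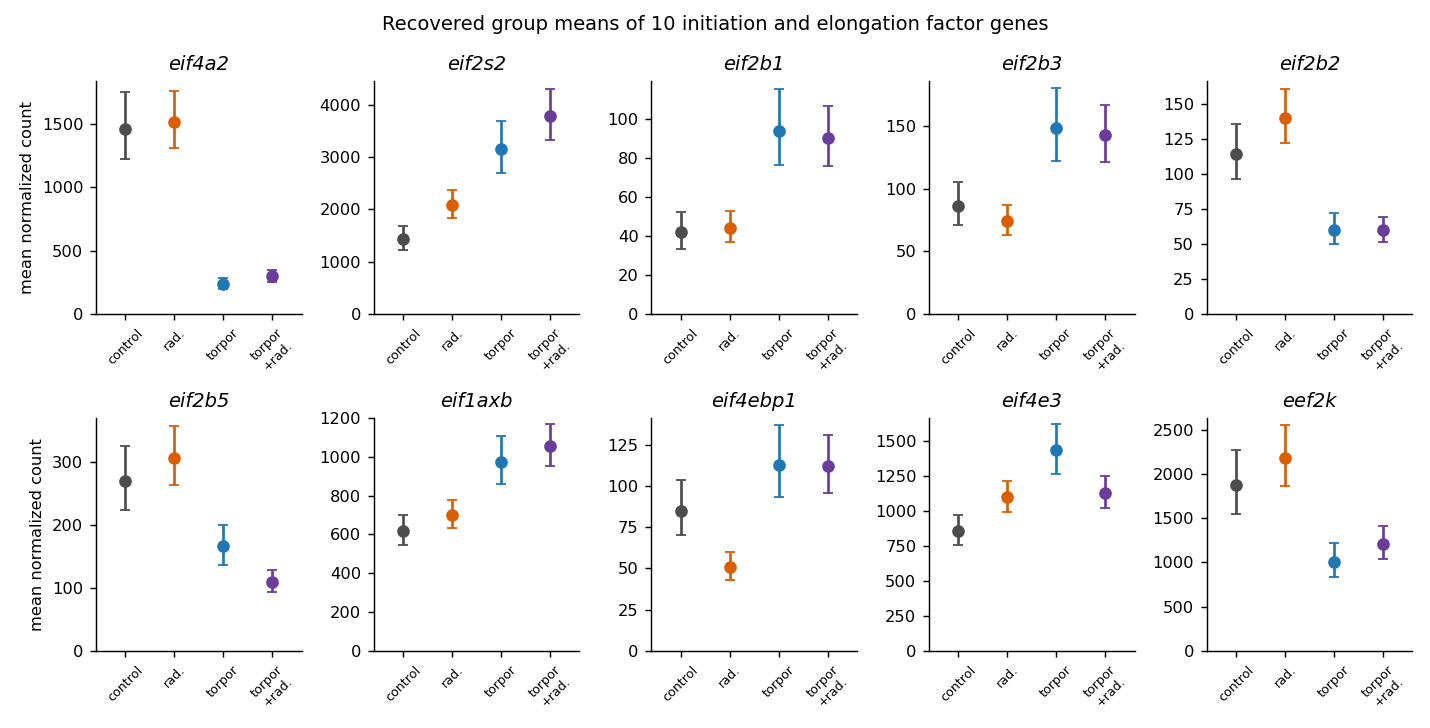
Mean normalized count (vertical axes, each starting at 0) in control, radiation, induced torpor and induced torpor+radiation for 10 genes; points are recovered group means and bars 1 SE taken on the log2 scale. For eif4a2, eif2b2, eif2b5 and eef2k both means at 18.5 °C lie below both means at 28.5 °C, for eif2s2, eif2b1, eif2b3, eif1axb, eif4ebp1 and eif4e3 they lie above them, narrowly so for eif4e3 (1129 against 1101).

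eIF3, the largest initiation factor and the scaffold that holds the scanning complex together, had 15 member genes, of which 14 were tested in induced torpor. eif3jb rose 2.62-fold (log2 fold change 1.39, SE 0.37, adjusted p = 0.0054) and eif3hb 2.60-fold (1.38, SE 0.49, adjusted p = 0.055), while eif3ba fell 1.65-fold (-0.72, SE 0.26, adjusted p = 0.066). eIF3j is a loosely bound subunit, eIF3h a subunit that budding yeast lacks and eIF3b a subunit shared with yeast. Of the 14 genes, 2 rose and 1 fell, beside 6.14% and 4.82% of all genes. The median over the 14 genes was -0.03, with 6 above 0 and 8 below. eif3c, with a baseMean of 2639, had -0.65 (SE 0.30, adjusted p = 0.18). eif3f had means of 1800 in control, 1972 in radiation, 1276 in induced torpor and 1385 in induced torpor+radiation. It was 1.42-fold lower in induced torpor+radiation than in radiation (-0.51, SE 0.18, adjusted p = 0.043), and against control it had -0.50 (SE 0.22, adjusted p = 0.16) in induced torpor and -0.38 (SE 0.20, adjusted p = 0.23) in induced torpor+radiation, both of which came under 0.1 only after centring on the median gene. The other 7 one-to-one eIF3 genes, eif3d, eif3ea, eif3g, eif3i, eif3m, eif3s10 and eif3s6ip, did not pass in any comparison.

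Among factors for scanning and start codon recognition, eif1axb, a gene of eIF1A, had means of 617 in control, 700 in radiation, 974 in induced torpor and 1055 in induced torpor+radiation. It rose 1.71-fold in induced torpor+radiation against control (log2 fold change 0.77, SE 0.24, adjusted p = 0.018) and 1.51-fold against radiation (0.59, SE 0.21, adjusted p = 0.049), and in induced torpor it narrowly missed the threshold (0.66, SE 0.26, adjusted p = 0.105). eif1, for the factor that guards start codon choice, had means of 3727, 4998, 5064 and 5589 in control, radiation, induced torpor and induced torpor+radiation and did not pass. eif5, for the GTPase activator of eIF2, lay between 979 and 1280 in the 4 groups and did not pass. eif5a, for the hypusine-containing factor that eases difficult peptide bonds, had a baseMean of 10550 and -0.16 (SE 0.24) in induced torpor, and eif5a2 had 0.39 (SE 0.28). eif6, which keeps ribosomal subunits apart, had 0.68 (SE 0.35, adjusted p = 0.26).

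No elongation factor gene passed in induced torpor against control. All 5 eEF1 genes with a baseMean of at least 10 had fold changes below 0, from -2.73 (SE 1.22, adjusted p = 0.16) for eef1a1a, with a baseMean of 14.4, to -0.15 (SE 0.21) for eef1g, the member of highest baseMean (15220). eef1b2, eef1db and eef1g, for subunits of the eEF1B complex, did not pass in any comparison. eef1da had means of 9606 in control, 10911 in radiation, 6696 in induced torpor and 6341 in induced torpor+radiation, and was 1.72-fold lower in induced torpor+radiation than in radiation (log2 -0.78, SE 0.28, adjusted p = 0.045). The tables pair eef1da with the human gene EFCC1 and not with EEF1D. eEF1A itself was thinly covered, since eef1a1l2 and eef1a2 had baseMeans of 1.79 and 3.46 and other eEF1A copies were not analysed here. eef2l2, an eEF2 gene with a baseMean of 10001, had means of 10489 in control, 11964 in radiation, 8723 in induced torpor and 8564 in induced torpor+radiation and did not pass (-0.27, SE 0.47, in induced torpor).

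eef2k, for the kinase that phosphorylates eEF2 and thereby slows elongation, had means of 1876 in control, 2186 in radiation, 1009 in induced torpor and 1212 in induced torpor+radiation. Both torpor means were below both means at 28.5 °C. It was 1.80-fold lower in induced torpor+radiation than in radiation (log2 -0.85, SE 0.32, adjusted p = 0.060). Against control it did not pass in induced torpor (-0.89, SE 0.39, adjusted p = 0.15, and 0.099 after centring) or in induced torpor+radiation (-0.63, SE 0.36, adjusted p = 0.27). The methyltransferase genes of elongation factors, eef1akmt1, eef1akmt2 and eef2kmt, had baseMeans between 7.88 and 21.9 and did not pass.

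Induced torpor+radiation against control asked whether the pattern was also present in irradiated torpid fish. Of 34 members tested, 3 rose (eif2s2, eif1axb and eif2b1) and 3 fell (eif4a2, eif2b5 and eif2b2), 8.82% each, against 9.09% of 6908 genes that rose and 6.43% that fell, so that these counts were near the background. The median of the 33 one-to-one members with a baseMean of at least 10 was 0.00, beside 0.09 over 6504 genes. After centring on the median gene, which subtracted 0.15, the split was 2 higher and 4 lower, with eif2b1 lost and eif3f gained (adjusted p = 0.069). The shares of all genes after centring were not calculated, so that this split has no background. This comparison shares its control fish with the induced torpor comparison, so that the values of both are given side by side and their likeness is not taken as a repeat.

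Induced torpor+radiation against radiation compares torpor with no torpor among irradiated fish and shares no fish with induced torpor against control. The letters of the fish codes were unequal between the groups here too, so that their part in both comparisons was not tested. Of 33 members tested, 5 were higher (eif4ebp1, eif2s2, eif2b1, eif2b3 and eif1axb) and 6 lower (eif4a2, eif2b5, eif2b2, eif3f, eef1da and eef2k), 15.2% and 18.2%, against 9.12% of 6499 genes that were higher and 7.0% that were lower. The median of the members was -0.12, beside 0.06 over 6504 genes. All 5 one-to-one members called in induced torpor against control had the same direction here, and 4 of them passed again, eif4a2, eif2s2, eif2b1 and eif2b2, with eif4e3 the exception. These 4 were 80.0% of the 5 called among unirradiated fish and 36.4% of the 11 called among irradiated fish. For all one-to-one genes, 689 of 727 called among unirradiated fish had the same direction (94.8%) and 385 passed again (53.0% of 727 and 36.7% of 1048). Over the 33 members the log2 fold changes of both comparisons had a Pearson r of 0.88, or 0.82 over 32 members without eif4a2, beside 0.57 over 6499 genes. The points share size factors and a dispersion estimate from all fish, and the r is a description only. The members also had smaller SEs than all genes, with medians of 0.34 beside 0.46 in induced torpor against control. In induced torpor+radiation against radiation the medians were 0.28 beside 0.38. What this difference in precision did to r, to the shared directions and to the shares that passed was not tested.

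**Figure D3:**
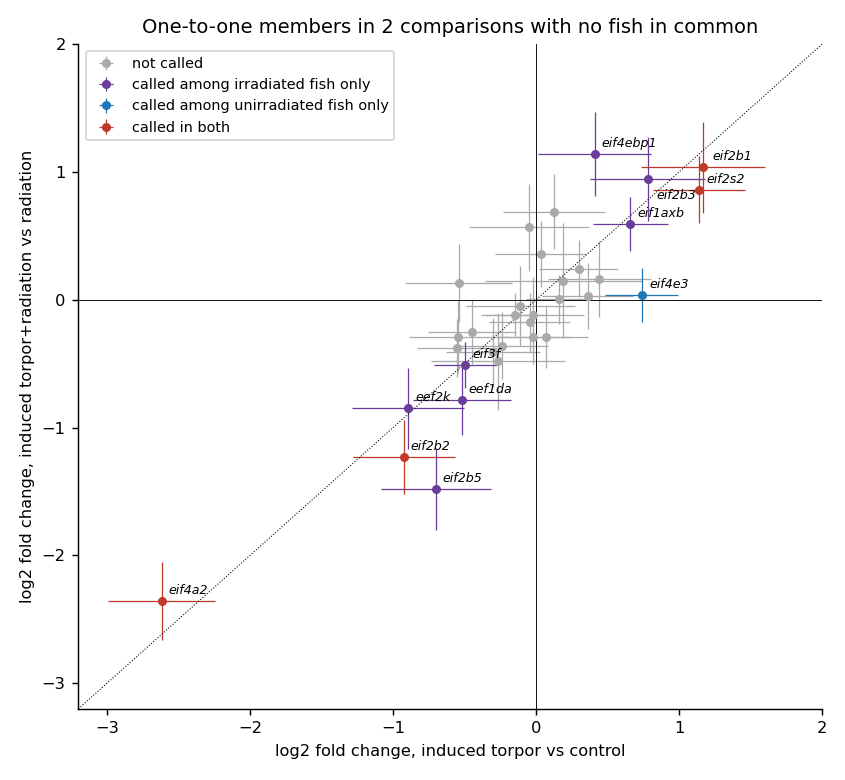
Log2 fold change of induced torpor over control (horizontal axis, 4 fish) against that of induced torpor+radiation over radiation (vertical axis, 6 other fish) for 33 one-to-one members; bars are 1 SE, the dotted line marks equal values, and colours mark in which comparison a gene passed. The 4 genes that passed in both lie near the dotted line at both ends, and 30 of 33 genes (90.9%) have the same sign on both axes, beside 4783 of 6499 one-to-one genes (73.6%). Median SEs of the members were smaller than those over all genes (0.34 beside 0.46 and 0.28 beside 0.38).

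Radiation against control asked what the dose did at normal temperature. Of 36 members tested, 0 rose and 1 fell, eif4e1b, against 0.657% of 7616 genes that rose and 1.3% that fell. eif4e1b, with a baseMean of 2.97, reached testable counts largely through the control, where it was high. A fall was therefore favoured by the filter, so that the count of 1 is a description only. At an unadjusted p under 0.05, 0 members were higher and 2 lower, eif4e1b and eif4ebp1, by the DESeq2 Wald test. Over all genes these shares were 1.89% and 3.11%. The 33 one-to-one members with a baseMean of at least 10 had a median log2 fold change of 0.17, with 29 above 0 and 4 below, beside a median of 0.05 over all 6504 genes. The share of all genes above 0 was not calculated, so that the 29 and 4 have no background. The lower and upper quartiles were 0.08 and 0.22 for the members and -0.23 and 0.27 over all genes. After centring on the median gene, which subtracted 0.11, the median of the members was 0.06, and the members above 0 were not recounted. The members' fold changes ran from -0.74 for eif4ebp1 to 0.54 for eif2s2.

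eif4e1b, for an eIF4E relative, had a mean of 14.2 in control and of 0.185 in radiation, 0.142 in induced torpor and 0.167 in induced torpor+radiation. The control mean was therefore at least 4.72 times a floor of 3 normalized counts per group, under which the 3 other groups lay. Its fitted log2 fold change in radiation was -6.26 (SE 2.43, adjusted p = 0.38), which depends on how counts near 0 are fitted and is no bound, and the call was lost under each of the 6 alternatives run for the radiation comparison. Transcripts of the oocyte marker list were high in the same group: 9 of 14 listed genes could be read, and their summed means were 501 in control, 17.1 in radiation, 17.1 in induced torpor and 6.83 in induced torpor+radiation. The 3 of these with a baseMean of at least 10, h1m, zar1 and kpna7, had control means of 260, 111 and 76.9 and radiation means of 8.83, 1.45 and 1.04. Of 5 oocyte genes tested in radiation 4 fell, these 3 and btg4, beside 1.3% of all genes. bmp15 did not pass (log2 fold change -1.09, SE 1.37). The 4 that fell reached testable counts largely through the control, so that this is a description only. Which cells of the muscle held the eif4e1b transcript was not examined, and the part of oocytes in its value was not tested. eef1a2, the muscle and nerve form of eEF1A in mammals, was also near the floor, with means of 1.19 in control, 10.1 in radiation, 0.413 in induced torpor and 0.341 in induced torpor+radiation, and did not pass.

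Radiation given under torpor, in induced torpor+radiation against induced torpor, moved no member past the threshold: 0 of 33 were higher and 0 lower, against 0.108% of 6499 genes in each direction. At an unadjusted p under 0.05 by the recovered Wald test, 1 member was higher, eef1db, and 0 lower, beside 2.14% and 2.06% of genes. With a t distribution in place of the normal, 0 members were under 0.05. The log2 difference of eef1db was 0.80 (SE 0.34, adjusted p = 0.98 over all genes by that test). The median of the members was 0.11, beside 0.01 over 6504 genes. The radiation by torpor interaction asks whether the response to radiation differed between fish with and without cold and melatonin. It called 0 members higher and 0 lower, against 0.308% and 0.154% of genes. At an unadjusted p under 0.05, 0 were higher and 1 lower, eif4e3, given above, beside 2.43% and 2.45% of genes. SEs of the interaction had a median of 0.44 over the members, the precision behind these counts of 0. Between the comparisons of radiation at 28.5 °C and of radiation under torpor, which share no fish, the log2 fold changes of the 33 members had a Pearson r of -0.07, as a description, beside -0.01 over 6499 genes.

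Zebrafish carry several copies of many of these genes, and 5 of the 10 members called in induced torpor were copies without a one-to-one human orthologue, 4 of them higher, out of 26 such copies tested, beside 6.14% of all genes that rose and 4.82% that fell. Related copies were set side by side in 13 pairs, 10 of which had a baseMean of at least 10 in both. In 0 of these 10 pairs did both copies pass. The share over pairs of other genes was not calculated, so that this 0 has no background and is not read as a difference between copies. The intervals below were not adjusted for the number of pairs. The 95% interval of the difference in log2 fold change, with errors taken as independent, left out 0 in 3 pairs: eif4ebp3 less eif4ebp3l was 2.11 (1.01 to 3.21), eif3ha less eif3hb was -1.18 (-2.25 to -0.11) and eif3ja less eif3jb was -1.08 (-2.12 to -0.04). For eif4ea less eif4eb it was -1.40 (-2.90 to 0.09), and for eif4ba less eif4bb -1.06 (-2.22 to 0.10). eif2s1a and eif2s1b, eif4g3a and eif4g3b, and eef1da and eef1db differed by less than 0.18, with intervals that reached about 1 log2 unit either way. Reads of near-identical copies may have been split between them or left out by the counting, so that values of single copies are uncertain.

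**Figure D4:**
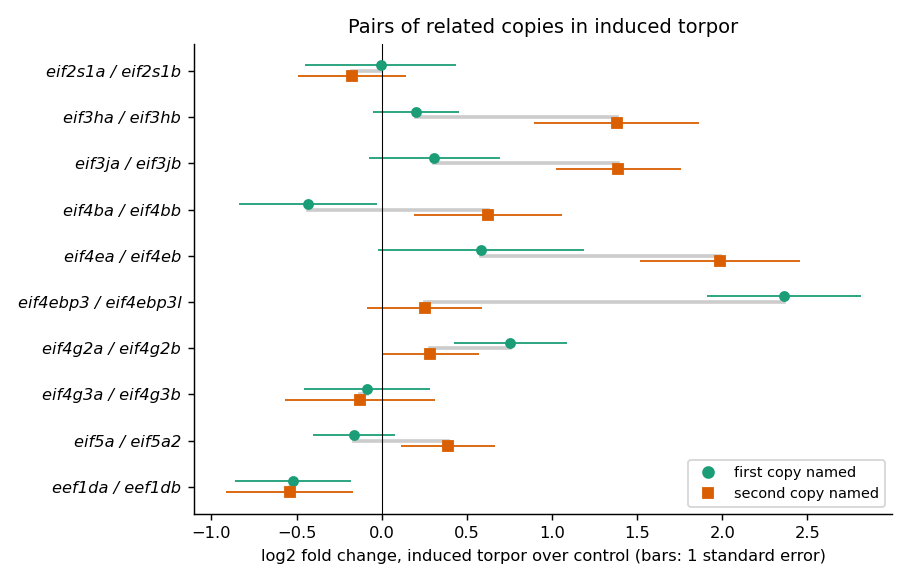
Log2 fold change of induced torpor over control (horizontal axis) for both copies of 10 pairs with a baseMean of at least 10; circles are the first copy named and squares the second, bars 1 SE, and grey lines join the copies. The copies of eif4ebp3, eif3h and eif3j lie more than 1 log2 unit apart, with 1 copy of each near 0.

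Other genes that act on translation were read from 3 lists. Of 32 listed regulators, 17 had a one-to-one orthologue, and in induced torpor 3 rose and 1 fell, beside 6.14% and 4.82% of all genes. abce1, which splits the ribosome for recycling, had means of 126, 193, 391 and 372 in control, radiation, induced torpor and induced torpor+radiation and rose 1.64 on the log2 scale (SE 0.30, adjusted p = 1.22e-05). abcf1, an initiation cofactor of the same protein family, rose by 1.41 (SE 0.46, adjusted p = 0.037) and denr, for a reinitiation and recycling factor, by 0.83 (SE 0.30, adjusted p = 0.065). akt1s1, for the mTOR inhibitor PRAS40, had a log2 fold change of -0.80 (SE 0.31, adjusted p = 0.098), the gene that fell. In induced torpor+radiation against control 4 rose, the same 3 and impact (1.22, SE 0.34, adjusted p = 0.0077), and 3 fell, akt1s1 (-1.30), gcn1 (-1.19) and pabpc4 (-0.84), beside 9.09% and 6.43% of all genes. GCN1 activates the eIF2 kinase GCN2, and IMPACT blocks this by binding GCN1. In induced torpor+radiation against radiation 3 of the 17 were higher and 3 lower, beside 9.12% and 7.0% of all genes, and in radiation 0 rose and 0 fell. mtor itself had means of 227, 191, 193 and 190 in control, radiation, induced torpor and induced torpor+radiation and did not pass. The eIF2 kinase genes that could be read, eif2ak1, eif2ak3 and EIF2AK4, did not pass either. Of the 2 termination and rescue genes that could be read, pelo, for the factor that rescues stalled ribosomes, rose by 1.96 (SE 0.47, adjusted p = 0.0014) in induced torpor and by 1.94 (SE 0.43, adjusted p = 0.00037) in induced torpor+radiation. All 9 mitochondrial translation factor genes were read and 0 passed against control, and gfm2 was higher in induced torpor+radiation than in radiation (1.43, SE 0.50, adjusted p = 0.041).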

How the data were processed

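Dorsal muscle RNA of 10 zebrafish was sequenced after poly-A capture. Per the labels and methods, reads were checked with FastQC, aligned to GRCz11 with STAR and counted with HTSeq, and DESeq2 compared groups with the control; cutadapt is also named, and versions are not given in the sources used here. The authors deposited 3 comparison tables, each of a treated group with the control. They give as signal the baseMean, as log2 values the unshrunken fold change and its SE, as score the Wald statistic, and the deposited p-value with its Benjamini-Hochberg adjustment. BaseMean was equal in all 3 tables, as from a single fit to all fish. These fits by the authors were used because no values per fish were analysed here. Library totals are thus unknown, replicates could not be compared and precision rests on the SEs.

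Group means were recovered from baseMean, group sizes and the 3 fold changes, and a dispersion per gene from the 3 SEs under a negative binomial variance with means of at least 0.5. Recalculated SEs had median ratios to the deposited ones of 0.996, 1.00 and 0.999. The dispersion came from these same SEs, so that ratios near 1 were largely fixed in advance and do not test the recovery. Wald tests were then made for induced torpor+radiation against induced torpor and against radiation and for the interaction, adjusted over 6499 one-to-one genes with a baseMean of at least 10. Python 3.11.15, numpy 2.4.6, scipy 1.17.1, pandas 2.3.3 and matplotlib 3.10.9 were used. The calculation was run on simulated counts drawn from the same negative binomial model, so that the model itself was not tested. A gene on several rows counted once (7 members).

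Members and lists were chosen with earlier results of these data known. Genes named are all members called, partners of called copies, the 8 members of highest baseMean, eif4a2, eif4e1b, eef2k and the eif4ebp, eif5a and eef1a genes, with other members given by role. Alternatives were a t distribution with 6 degrees of freedom, centring on the median gene with a baseMean of at least 50, other thresholds, other filters and another dispersion. All 66 IDs were in the table of gene names.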

Additional observations from a re-analysis of the deposited data

How the results depend on the processing

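A t distribution with 6 degrees of freedom in place of the normal one removed every call among the members: 0 in place of 1 for radiation, 0 in place of 10 for induced torpor, 0 in place of 6 for induced torpor+radiation against control and 0 in place of 11 for induced torpor+radiation against radiation. The lowest adjusted p of a member was then 0.269 for induced torpor, 0.229 for induced torpor+radiation and 0.108 for induced torpor+radiation against radiation, and over all genes 0, 0 and 3 were called. At an unadjusted p under 0.05 this left 11, 7 and 11 members, and the share of all genes at that cut was not calculated, so that these counts have no background. The single radiation call became 0 under centring on the median gene, an adjusted p of 0.05 or of 0.1, a baseMean of at least 50 and adjustment over all genes with a p-value. For induced torpor, a threshold of 0.05 left 5 calls, and the one-to-one members alone gave 5. At a threshold of 0.4, added after seeing the data, induced torpor+radiation against control had 13. In the other alternatives run, counts stayed within 1.5 times those reported. For the other thresholds, the one-to-one members alone, the filters and centring, the share of all genes called was not calculated. The counts of members under these settings therefore have no background. Centring changed the medians of the members by the amount subtracted (-0.07 to 0.15), which took that of induced torpor+radiation against control from 0.00 to -0.15 and that of the interaction from -0.07 to 0.01. Filters on baseMean brought in eif1axb for induced torpor (adjusted p = 0.075), eif1b for induced torpor+radiation against radiation (0.091) and, with all genes, eif4e1b for induced torpor+radiation (0.088); adjustment over all genes with a p-value took out eif2b2 (0.125) and eif2b1 (0.106) for induced torpor. No paired analysis was possible because the tables hold comparisons and no values per fish, and for the same reason no fish could be left out in turn. With 2 control fish, 1 unusual control would enter all 3 comparisons with the control. The fold changes of induced torpor+radiation against induced torpor or radiation leave the control out, but their SEs rest on a dispersion from all 10 fish.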
